A study of Mus musculus with 24 samples.

Results

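The contrast described here set the 3 CA1 libraries made 24 h after pilocarpine-induced status epilepticus (SE 24 h) against the 9 control libraries (Ctr) of the same series, 12 of its 24 libraries. They were chosen by their labels alone, as the libraries of treated mice at 24 h and all libraries of untreated mice at 12, 36 and 72 h (3 each), because none of the control libraries carried a 24 h label. The series followed the early phase of epileptogenesis in the hippocampal CA1 subfield of adult C57Bl/6N mice in groups sampled from 6 to 72 h after SE. All mice were at least 60 days old, and their sex was not given in the labels. SE-experienced mice had received 1 mg/kg scopolamine methyl nitrate and then 335 mg/kg pilocarpine hydrochloride, and only those that developed SE were used. Control mice had been handled alike with saline in place of pilocarpine, so both sides of the contrast carried the scopolamine. Diazepam at 4 mg/kg was given to both, 40 min after the onset of SE in the SE-experienced mice. CA1 was microdissected from coronal slices, and its polyadenylated RNA was sequenced as an unstranded library. The labels number the libraries of a group but do not say whether each came from a separate animal, and the p-values given here measure the spread between these libraries only.

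Status epilepticus is a seizure that does not stop by itself. In rodents a single episode evoked with pilocarpine, an agonist of muscarinic acetylcholine receptors, is followed after a seizure-free interval by spontaneous recurrent seizures. The CA1 subfield holds pyramidal cells, inhibitory interneurons, astrocytes, microglia, cells of the oligodendrocyte lineage and vascular cells. In such injured tissue astrocytes and microglia are known to take on reactive states, in which they make intermediate filaments, cytokines, chemokines and proteins of the extracellular matrix, while active neurons switch on immediate early genes.

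The SE 24 h libraries held 9328095 to 22347349 counts and the controls 2663936 to 27648010 counts (medians 15194222 and 12619488). On the first principal component of these 12 libraries, with 34.2% of the variance, the SE 24 h libraries lay between 75.9 and 113 and the controls between −68.5 and −19.3. The labels also carry a running number, and those of SE 24 h fall in a range in which no control lies. Among these 12 libraries this range and the time after SE therefore cannot be told apart. Some libraries of each other SE time lie in the same range, so that a fit of all 24 libraries can hold a term for it. One control stood apart from the others. In Ctr 72 h replicate 2 the summed level of 11 sensory ganglion genes was 1989 CPM (counts scaled to a common library size after TMM normalization), against 13.7 to 85.9 CPM in the other controls and 17 to 65.1 CPM in SE 24 h, and that library also had 77.1 CPM of the X-inactivation transcript Xist, against at most 4.27 CPM in the other controls. The controls at 72 h lie 12 h from those at 12 and 36 h in the daily cycle. By the hours in the labels, SE 24 h shares the phase of Ctr 72 h and not of Ctr 12 h and 36 h. Between these control groups 557 genes (3.07% of those tested) differed, 216 (1.19%) higher and 341 (1.88%) lower at 72 h. Ctr 72 h also holds the library that stood apart and the shallowest one, so that phase and library cannot be told apart in this count.

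In SE 24 h, 4393 of the 18153 genes tested were differentially expressed (DEGs) against the controls, taken as the mean of their 3 groups, 24.2% of all. For a DEG, the p-value of edgeR's quasi-likelihood test, adjusted by Benjamini-Hochberg over all genes tested, had to be 0.05 or less and the log2 fold change (Log2FC) 0.66 or more in size. Of these, 2719 (15%) rose and 1674 (9.22%) fell, while the median Log2FC of all genes was 0.04. By a Log2FC of at least 2, 999 genes rose and 231 fell. Genes with few or no counts in controls have little room to fall, and they passed the filter on low counts through other libraries. With at least 10 counts required in every library, 1352 genes were called higher and 1147 lower (54.1% higher, against 61.9%). That filter also removes genes with few counts in SE 24 h. In 2462 genes (13.6%) all 3 SE 24 h libraries lay above all 9 controls and in 1818 genes (10.0%) below them. Among DEGs, 1691 that rose and 1062 that fell had such separate groups. Protein-coding genes rose more often than they fell (15.7% and 8.91% of 15224), whereas lncRNA genes fell about as often as they rose (11.8% rose and 12.9% fell of 1811). For 33 genes called higher, the mean CPM was lower in SE 24 h than in controls, and in all 33 the highest control was Ctr 72 h replicate 2. In 6 of them the mean was lower also when Ctr 72 h replicate 2 was left out of it. Without that library 2449 genes rose and 1969 fell. Because counting ignored the strand, the 2964 of 4371 DEGs with a known position that another gene overlaps on the opposite strand may hold reads of both.

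**Figure D1:**
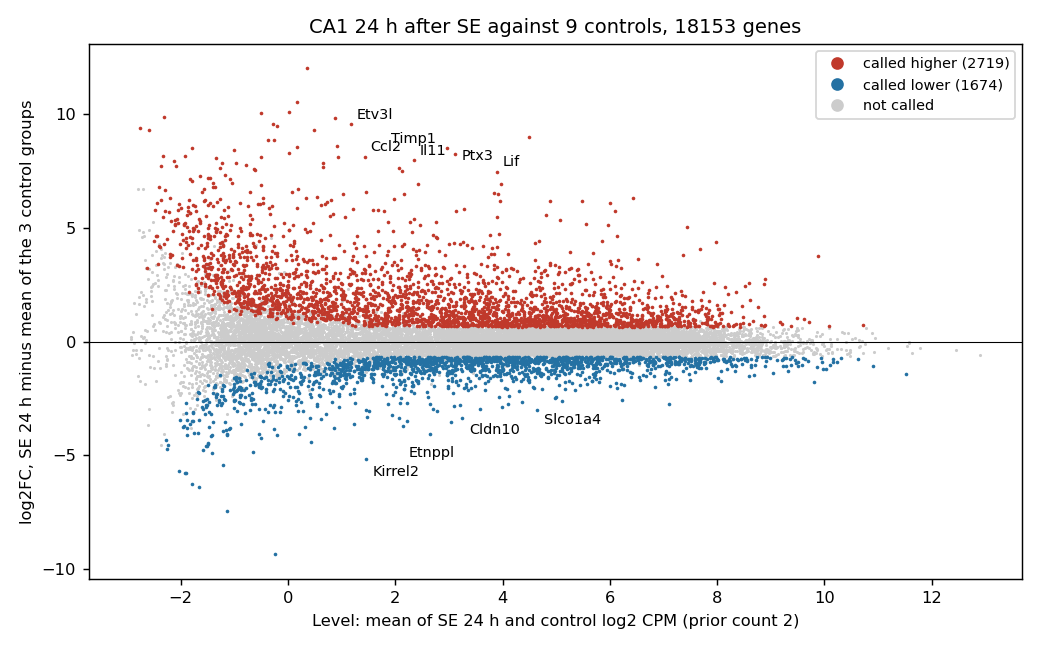
Log2FC of SE 24 h over controls (vertical axis) plotted against the mean level as log2 CPM (horizontal axis) for 18153 genes, with 2719 called higher in red and 1674 called lower in blue. The largest increases lie further from 0 than the largest decreases, and 10 genes described in the text are labelled. Genes with few counts in controls that passed the filter through other libraries are included.

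The 12 largest increases among genes that had separate groups and a mean level of 1 or more as log2 CPM included Etv3l, Timp1, Ptx3, Ccl2, Il11, Tnn, Msr1, Lif, Tgm1, Flnc and Ccl12. In what follows, levels are CPM in SE 24 h replicates 1, 2 and 3 in this order, then the lowest to highest of the 9 controls with their median, and Log2FC is given ± its standard error. Timp1, a secreted inhibitor of matrix metalloproteinases, was at 160.1, 107 and 153 CPM against 0 to 2.05 CPM (median 0.309) in controls. Every SE 24 h library exceeded the highest control by far, the 3 libraries were close to each other and Log2FC was 8.51 ± 0.29 (adjusted p = 3.5e-14). Ptx3, a pentraxin of the innate immune response, reached 100.2, 78.8 and 269.6 CPM against 0 to 0.967 CPM (median 0.553), with a Log2FC of 8.23 ± 0.39. Tenascin-N (Tnn), a glycoprotein of the extracellular matrix, was at 27.3, 55.4 and 90.1 CPM against 0 to 0.622 CPM (median 0.209). Its SE 24 h libraries were separate from all controls but also wide apart among themselves. Transglutaminase 1 (Tgm1), which crosslinks proteins, and filamin C (Flnc), which crosslinks actin, rose by 6.95 ± 0.36 and 6.93 ± 0.33 on the log2 scale.

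Of the same 12 genes, 4 encode secreted cytokines or chemokines. Leukaemia inhibitory factor (Lif), a gp130 cytokine, stood at 219, 169.8 and 234 CPM after SE and at 0 to 1.73 CPM (median 1.43) in controls, with a Log2FC of 7.48 ± 0.33 (adjusted p = 1.2e-12). All 3 libraries were far above any control. Interleukin 11 (Il11), a cytokine of the same family on chromosome 7 (4775372 to 4785858, minus strand of GRCm39), was at 46.9, 41.1 and 121.4 CPM against 0 to 1.11 CPM (median 0.338), with a Log2FC of 7.99 ± 0.54. Replicate 3 held the highest level, well above the other two. Ccl2, a chemokine for monocytes, was at 31.1, 26.5 and 33.6 CPM against 0 to 2.56 CPM (median 0.0719), and its Log2FC was 8.14 ± 0.48. The highest of the controls was Ctr 72 h replicate 2, and it too lay far below each SE 24 h library. Ccl12, a related chemokine, was at 36.3, 18.6 and 23.2 CPM against 0 to 0.591 CPM (median 0.189). The scavenger receptor of macrophages Msr1 held nearly one level in all 3 libraries, 51.4, 48.3 and 54.4 CPM, against 0 to 1.04 CPM (median 0.189). Etv3l, a gene of the ETS transcription factor family that Gm64811 overlaps on the opposite strand, gave the largest Log2FC of the 12 (9.56 ± 0.97) and the widest spread, 22.5, 4.88 and 98.2 CPM against 0 to 0.375 CPM (median 0.0719).

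The 12 largest decreases by the same rule included Kirrel2, Etnppl, Klhdc7a, Slc25a34, Cyp4f15, Fam163a, Cldn10, Edn3, Adhfe1, Agmo and Slco1a4. Kirrel2 (chromosome 7, 30146958 to 30157131, minus strand of GRCm39), an adhesion protein of the immunoglobulin superfamily, was at 0.637, 0.697 and 0 CPM after SE and at 7.43 to 29.1 CPM (median 18.1) in controls. Each SE 24 h library lay far below the lowest control, and Log2FC was −5.18 ± 0.51 (adjusted p = 1.1e-07). Several of these genes encode metabolic enzymes. Etnppl, a phospholyase of ethanolamine phosphate found in astrocytes, was at 1.70, 3.09 and 0.280 CPM against 13.2 to 61.4 CPM (median 29.7) (Log2FC −4.04 ± 0.65). Cyp4f15, a cytochrome P450 of fatty acid metabolism, was at 2.12, 2.66 and 2.24 CPM against 22.3 to 37.0 CPM (median 25.7), with a Log2FC of −3.53 ± 0.23 and little spread between the 3 libraries. Adhfe1, a hydroxyacid dehydrogenase, and Agmo, which cleaves ether lipids, fell by 3.03 and 3.01 on the log2 scale. Others act at barriers. Cldn10, a claudin of tight junctions, was at 2.97, 3.22 and 2.52 CPM against 23.9 to 40.8 CPM (median 28.9) (Log2FC −3.35 ± 0.24, adjusted p = 1.1e-09). Slco1a4, an organic anion transporter of brain endothelium, was at 5.95, 18.99 and 3.99 CPM against 60.1 to 107 CPM (median 82.6). The groups were separate for Slco1a4, but replicate 2 held a higher level than the other two.

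**Figure D2:**
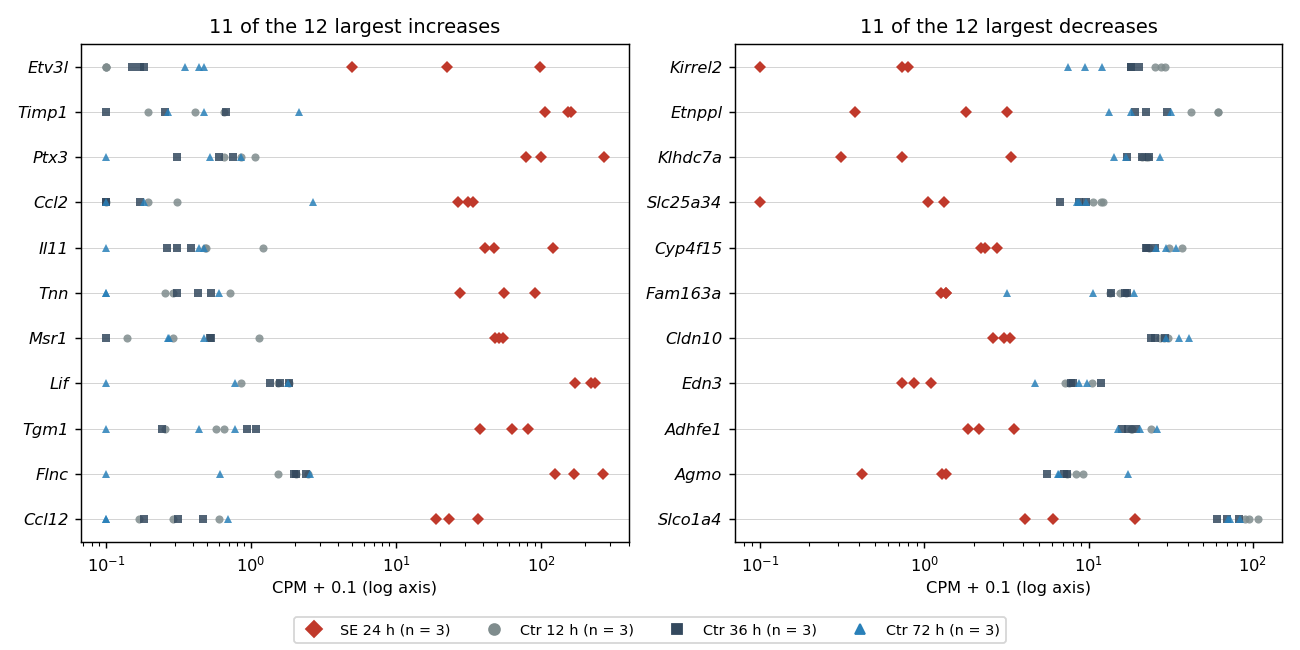
Level of 11 of the 12 largest increases (left) and 11 of the 12 largest decreases (right) in each library, as CPM plus a small constant on a log axis, with SE 24 h as red diamonds (n = 3) and Ctr 12, 36 and 72 h as grey circles, dark squares and blue triangles (n = 3 each). The 3 SE 24 h libraries of each gene lie on one side of all 9 controls, as the rule for these genes required.

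Genes were grouped in 48 lists, of which 604 distinct genes were tested, and some genes belong to more than one list. Each count is to be read against the 15% of all genes that rose and the 9.22% that fell, and each list median against the 0.04 of all genes. Members with few or no counts in controls passed the filter on low counts through other libraries. With at least 10 counts required in every library, the number called higher was 0 of the chemokines below (median Log2FC −1.04), 3 of the gp130 list (0.753), 6 of the interferon list (1.03), 2 of the toll-like receptor list (0.88) and 8 of the reactive astrocyte genes (4.25). It was 5 of the disease-associated microglia genes (1.28), 9 of the IL-1, TNF and NF-kB genes (1.15) and 6 of the matrix genes (2.08). Adhesion genes had 3 (1.38), complement 6 (1.68), myeloid factors 4 (0.891), mitotic genes 6 (1.15) and neuropeptides 9 (1.73). Genes with fewer counts in any library are then not tested, so that a lower number called is in part a lower number tested.

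**Figure D3:**
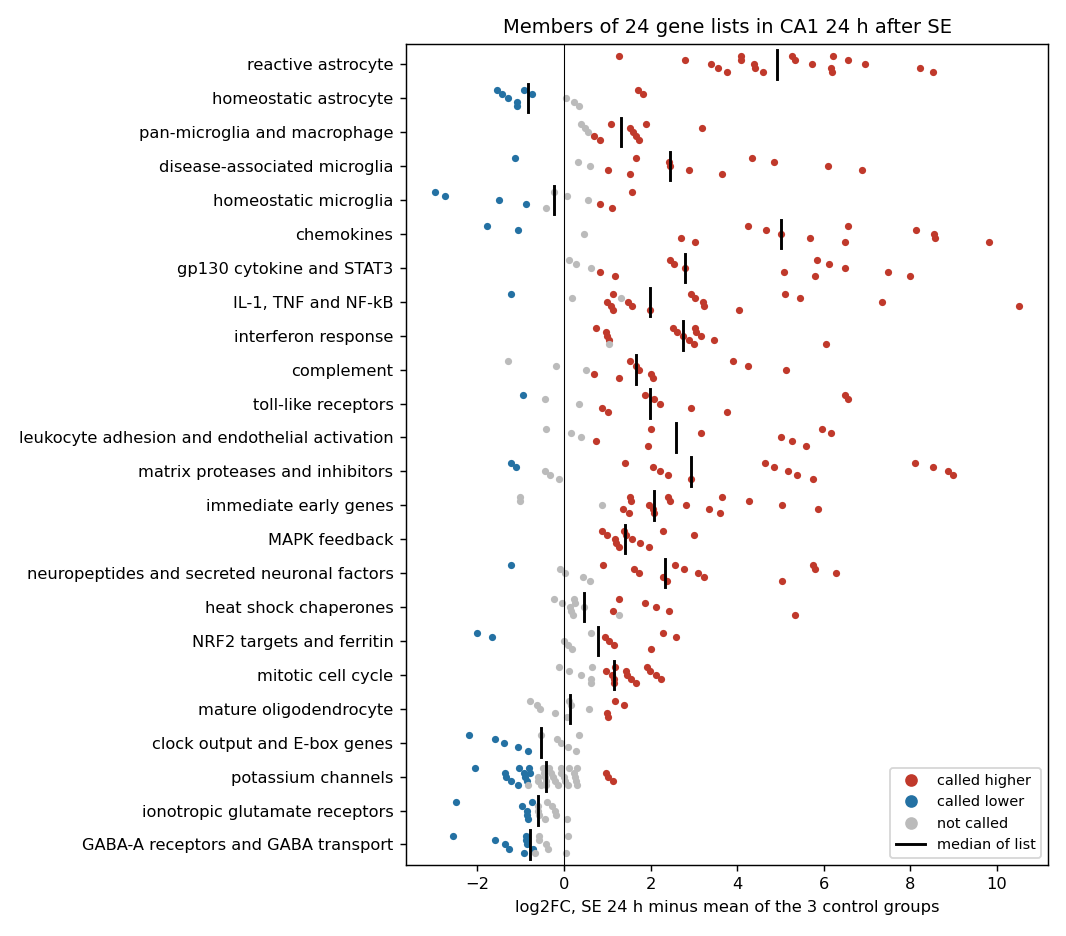
Log2FC of SE 24 h over controls for each tested member of 24 gene lists (1 dot per gene, red called higher, blue called lower, grey not called) with the list median as a black bar. The medians run from 5.01 for chemokines and 4.93 for reactive astrocyte genes to −0.79 for GABA-A receptors and GABA transport.

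All 20 reactive astrocyte genes rose, with a median Log2FC of 4.93, and in 19 of them every SE 24 h library lay above every control. Gfap, the intermediate filament protein of astrocytes, was at 4411, 3408 and 2809 CPM against 217 to 309 CPM (median 254) in controls. The mean was 13.7 times that of the controls (Log2FC 3.77 ± 0.17, adjusted p = 1.1e-12) with no overlap. Vimentin (Vim) was at 862, 722 and 979 CPM against 32.3 to 189 CPM (median 42.1), and Cd44, a receptor for hyaluronan, at 327, 367 and 459 CPM against 2.37 to 68.6 CPM (median 3.94). For both, the highest control was Ctr 72 h replicate 2, with the other controls at most at 56.6 CPM of Vim and 7.50 CPM of Cd44. Serpina3n, a serine protease inhibitor, rose by 4.39 ± 0.25, and S1pr3, a sphingosine-1-phosphate receptor, by 4.42 ± 0.19 on the log2 scale. The exception to separate groups was Steap4, a metalloreductase, whose libraries at 1.17, 3.57 and 1.33 CPM overlapped the controls at 0 to 6.48 CPM (median 0.116), of which the highest was again Ctr 72 h replicate 2.

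Of 12 homeostatic astrocyte genes 7 fell and 2 rose, with a median Log2FC of −0.83, and the summed level was 4180 to 4259 CPM against 6361 to 8009 CPM in controls. The glutamate transporter Slc1a2 was at 1276, 1435 and 1221 CPM against 2223 to 3155 CPM (median 2939), and the related Slc1a3 at 556, 437 and 411 CPM against 671 to 895 CPM (median 776). Neither overlapped the controls, and Log2FC was −1.09 ± 0.11 and −0.74 ± 0.14. Glutamine synthetase (Glul), the gap junction proteins Gja1 and Gjb6, the glycolytic enzyme Aldoc and the bicarbonate cotransporter Slc4a4 also fell, by between 0.92 and 1.54 on the log2 scale. Aqp4, the water channel of astrocyte endfeet, rose instead, from 84.1 to 160.1 CPM (median 108) to 321, 369 and 499 CPM (Log2FC 1.83 ± 0.17), as did the transcription factor Sox9 (1.72 ± 0.18). In bulk tissue such as this, fewer cells of a type and less RNA per cell cannot be told apart.

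Of 12 genes of microglia and macrophages in general 9 rose and none fell, and their summed level was 545 to 721 CPM against 228 to 313 CPM in controls. Cd68, a lysosomal protein of phagocytes, was at 59.7, 47.5 and 62.8 CPM against 0.171 to 10.98 CPM (median 8.62) (Log2FC 3.18 ± 0.22). Homeostatic microglia genes did not move as 1 group. P2ry12, a purinergic receptor that microglia use to sense nucleotides, was at 7.54, 6.14 and 6.10 CPM against 30.4 to 58.0 CPM (median 44.6), and Siglech at 1.81, 2.003 and 3.01 CPM against 14.01 to 22.3 CPM (median 17.9). Both lay wholly below the controls (Log2FC −2.75 ± 0.22 and −2.97 ± 0.28). Selplg and P2ry13 fell as well, whereas Olfml3 and the transcription factor Sall1 rose, and the receptor Csf1r was at 141, 115.1 and 131 CPM against 104.2 to 139 CPM (median 123) (Log2FC 0.08 ± 0.11, adjusted p = 0.61). Of 14 disease-associated microglia genes 11 rose and 1 fell, with a median of 2.44. Osteopontin (Spp1) was at 505, 475 and 683 CPM against 3.75 to 48.6 CPM (median 5.64), an increase of 6.09 ± 0.32 with separate groups, and the lectin Lgals3 rose by 4.85 ± 0.34. The gene that fell was Apoe, a lipoprotein that astrocytes also make, at 630.5, 657 and 588 CPM against 1186 to 1966 CPM (median 1289). The 4 infiltrating leukocyte genes tested of 12 listed (Ccr2, S100a8, S100a9 and Mpo) summed to 0.392 to 1.89 CPM after SE and to 0.0946 to 13.6 CPM in controls, and none of them was called, while 2 were higher without Ctr 72 h replicate 3.

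Of 15 chemokine genes 12 rose and 2 fell, with a median Log2FC of 5.01 (4.67 with Cxcl2 at its lower bound). Cxcl10, a chemokine induced by interferon, was at 47.0, 6.88 and 19.5 CPM against 0 to 0.288 CPM (median 0), Ccl3 at 23.4, 14.6 and 12.4 CPM against 0 to 0.760 CPM (median 0.155), and Ccl4 at 28.8, 17.8 and 19.7 CPM against 0 to 0.253 CPM (median 0). Replicate 1 was the highest of the 3 for each of them and no control overlapped. Log2FC was 9.81 ± 0.70, 6.48 ± 0.52 and 8.58 ± 0.48. Cxcl2 had no count in any control and 12 counts in SE 24 h, at least 10.3-fold more than a floor of 3 counts over the group. Ccl7, with 2 counts in all controls together, had 422 times their level per count sequenced (95% counting interval 116 to 3499), and Ccl5, with 3, had 17.5 times (5.22 to 91.5). The 2 chemokines that fell, Cxcl12 and Cxcl14, are known to be made without a stimulus, and stood for Cxcl12 at 16.04, 18.6 and 23.6 CPM against 52.5 to 78.4 CPM (median 68.0) and for Cxcl14 at 41.9, 39.6 and 29.2 CPM against 56.4 to 90.5 CPM (median 77.8).

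Cytokines of the gp130 family act through a shared receptor subunit (Il6st) and the transcription factor Stat3. Of 15 genes of this axis 12 rose and none fell, with a median of 2.79. Among the ligands, besides Lif and Il11, Clcf1 was at 77.5, 50.6 and 81.7 CPM against 0.760 to 2.62 CPM (median 1.32), oncostatin M (Osm) rose by 5.09 ± 0.58, and Il6 was at 0.531, 0.348 and 3.08 CPM against 0 to 0.164 CPM (median 0), with 4 counts in the 9 controls together. Among receptors, Osmr rose by 2.79 ± 0.19 and Il6st by 0.85 ± 0.08, whereas Lifr was at 107, 84.0 and 99.8 CPM against 57.1 to 162.2 CPM (median 78.8) (Log2FC 0.27 ± 0.14, adjusted p = 0.13). Stat3 was at 278, 311 and 347 CPM against 46.4 to 121.4 CPM (median 53.3), and its target Socs3, an inhibitor of the same axis, at 157, 96.8 and 176 CPM against 0.657 to 5.05 CPM (median 1.08). Both had separate groups, with a Log2FC of 2.44 ± 0.10 and 6.49 ± 0.35.

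Of 19 genes of the IL-1, TNF and NF-kB pathways 16 rose and 1 fell, with a median of 1.98. The IL-1 receptor antagonist Il1rn had no count in any control and 484 counts in SE 24 h (7.75, 5.05 and 20.7 CPM), at least 433-fold more than a floor of 3 counts over the group. Il1a and Il1b, the agonists of the same receptor, were at 2.87, 1.65 and 1.96 CPM and at 1.38, 0.566 and 0.561 CPM and rose by 3.24 ± 0.64 and 4.04 ± 0.79. Tnf, with 1 count in all controls together, had 215 times their level per count sequenced, with a 95% counting interval of 37.5 to 8581. Ptgs2, the inducible cyclooxygenase of prostaglandin synthesis, was at 211, 206 and 955 CPM against 4.35 to 42.5 CPM (median 9.35) (Log2FC 5.11 ± 0.47), with replicate 3 far above the other two. The receptors Tnfrsf1a and Tnfrsf12a rose by 2.94 ± 0.12 and 5.46 ± 0.25, and the subunits Nfkb1, Nfkb2, Rel, Rela and Relb all rose, by 0.99 to 3.22. Il18 was the member that fell (Log2FC −1.21 ± 0.14).

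Interferon response genes rose in 14 of 15 cases (median 2.76), to different levels in the 3 SE 24 h libraries. Rsad2, an antiviral radical enzyme, was at 18.2, 2.61 and 19.3 CPM against 0.470 to 2.39 CPM (median 1.18), and Ifit3, which binds foreign RNA, at 54.1, 8.49 and 43.7 CPM against 2.73 to 6.16 CPM (median 4.23). Replicate 2 lay close to the controls in both and the other 2 libraries well above them, with a Log2FC of 3.47 ± 0.51 and 3.02 ± 0.39. Replicate 2 was the lowest of the 3 libraries for 14 of the 15 genes. Over the list, the median difference from the controls' mean log2 CPM was 3.29, 0.95 and 2.68 in replicates 1, 2 and 3, and −0.21 to 0.22 in single controls.

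Complement genes rose in 10 of 13 cases (median 1.67). The 3 chains of C1q were close to each other, C1qa at 139.5, 109.5 and 128 CPM against 32.2 to 46.6 CPM (median 36.3), while the receptors C3ar1 and C5ar1 rose further, by 4.26 ± 0.21 and 5.12 ± 0.30. The component C3 itself was at 0.850, 6.53 and 1.68 CPM, highest in replicate 2, against 0 to 0.853 CPM (median 0.207). Of 12 genes of toll-like receptors and their adaptors 9 rose and 1 fell. Tlr2, a receptor for bacterial lipoproteins, was at 41.5, 26.5 and 40.1 CPM against 0 to 0.968 CPM (median 0.626) and the co-receptor Cd14 at 108.5, 68.5 and 261 CPM against 0.171 to 2.59 CPM (median 1.67), both separate from the controls, with a Log2FC of 6.50 ± 0.27 and 6.55 ± 0.36. Tlr3 and Tlr5 were not called, with a Log2FC of 0.35 ± 0.20 and −0.44 ± 0.67. Tlr9, at 1.27, 0.697 and 0.490 CPM against 0.171 to 2.59 CPM (median 1.87), was called lower (Log2FC −0.95 ± 0.37, adjusted p = 0.048) but overlapped the controls had a Log2FC of 0.0029 against Ctr 72 h alone, and lost its call when any of 8 of the 12 libraries was left out. Of 12 myeloid transcription factors 9 rose, including Spi1 (2.23 ± 0.20), which specifies the myeloid lineage, and Cebpd (3.23 ± 0.20).

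Of 19 matrix proteases, their inhibitors and matrix genes 14 rose and 2 fell, with a median of 2.94, and 1 fell without SE 24 h replicate 2 or Ctr 72 h replicate 2. Adamts1, a protease of aggrecan and versican, was at 398, 320.1 and 363 CPM against 6.65 to 24.9 CPM (median 13.3), and the related Adamts4 at 103.5, 82.5 and 175 CPM against 3.92 to 22.3 CPM (median 18.3). Their groups were far apart (Log2FC 4.63 ± 0.23 and 2.94 ± 0.24). Tenascin-C (Tnc) was at 217, 168.8 and 528 CPM against 2.39 to 13.4 CPM (median 9.66), and the hyaluronan synthase Has2 rose by 5.74 ± 0.42. Within the plasminogen system the activators Plau and Plat and the receptor Plaur rose by 2.21 ± 0.31, 1.41 ± 0.17 and 5.39 ± 0.37. Among metalloproteinases, Mmp14 and Mmp19 rose, Mmp2 fell by 1.12, and Mmp9 was at 0.850, 1.48 and 0.981 CPM against 0.822 to 2.59 CPM (median 1.50) (Log2FC −0.43 ± 0.39, adjusted p = 0.41). Mmp3 and Mmp12 each had 1 count in all controls together and 457 (81.0 to 18149) and 477 (84.6 to 18939) times the controls' level per count sequenced. The inhibitors differed among themselves: Timp1 rose, Timp4 fell (Log2FC −1.22 ± 0.19), and Timp2 and Timp3 had a Log2FC of −0.32 ± 0.18 and −0.11 ± 0.16 with overlapping groups.

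Genes by which endothelium and leukocytes attach to each other rose in 9 of 12 cases (median 2.58). The integrin subunit Itga5 was at 174, 203 and 234 CPM against 1.50 to 12.8 CPM (median 3.20) (Log2FC 5.59 ± 0.22), Icam1 rose by 1.95 ± 0.28 and Vcam1 by 0.73 ± 0.16. Sele and Selp, the selectins of activated endothelium, were called at low levels, 0.637, 0.958 and 0.911 CPM and 0.637, 1.39 and 0.981 CPM, against 4 and 6 counts in all controls together. Among 12 endothelial and mural markers 6 rose and 2 fell. The junction protein Cdh5 was at 50.1, 41.5 and 54.8 CPM against 12.5 to 21.7 CPM (median 15.5) and rose by 1.56 ± 0.15, Flt1 and Pecam1 rose by 1.30 ± 0.14 and 1.26 ± 0.15, whereas the transporters Slco1a4 and Abcb1a fell (Log2FC −2.997 ± 0.38 and −1.35 ± 0.21).

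Of 19 immediate early genes, which neurons transcribe within minutes of strong activity, 16 rose and none fell at 24 h (median 2.08), and 12 had separate groups. Fos was at 227, 117.5 and 822 CPM against 12.1 to 67.8 CPM (median 34.0), and Npas4 at 158, 49.7 and 830.5 CPM against 11.2 to 64.5 CPM (median 24.2). Replicate 3 held by far the highest level of both, and replicate 2 of Npas4 fell within the range of the controls. Log2FC was 3.65 ± 0.44 and 3.60 ± 0.57. Arc, which acts on AMPA receptor traffic, was at 567, 344 and 2082 CPM against 88.1 to 358 CPM (median 195), and Egr1 at 476, 311 and 1173 CPM against 68.1 to 275 CPM (median 170.0) (Log2FC 2.08 ± 0.44). Nptx2, a secreted pentraxin of excitatory synapses, showed a larger difference, 830.2, 386 and 2199 CPM against 10.6 to 103 CPM (median 34.4) (Log2FC 5.03 ± 0.43). The nuclear receptors Nr4a2 and Nr4a3 stood on the other side, at 50.4, 72.8 and 76.6 CPM and 35.1, 71.4 and 55.4 CPM, against control medians of 135 and 111 CPM, though neither passed the test (adjusted p = 0.075 and 0.14). Replicate 3 was the highest of the 3 libraries in 18 of the 19 genes and replicate 2 the lowest in 16. The list's median difference from the controls' mean was 1.65, 0.93 and 2.93 in replicates 1, 2 and 3, and −0.86 to 0.56 in single controls. Without replicate 3, 13 of the genes were called higher, and with a term for the label range in the fit 10 were called higher. Without Ctr 12 h replicate 3 or Ctr 72 h replicate 2, 1 gene was called lower. When only the compared libraries were fitted, 17 were called higher and 2 lower.

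**Figure D4:**
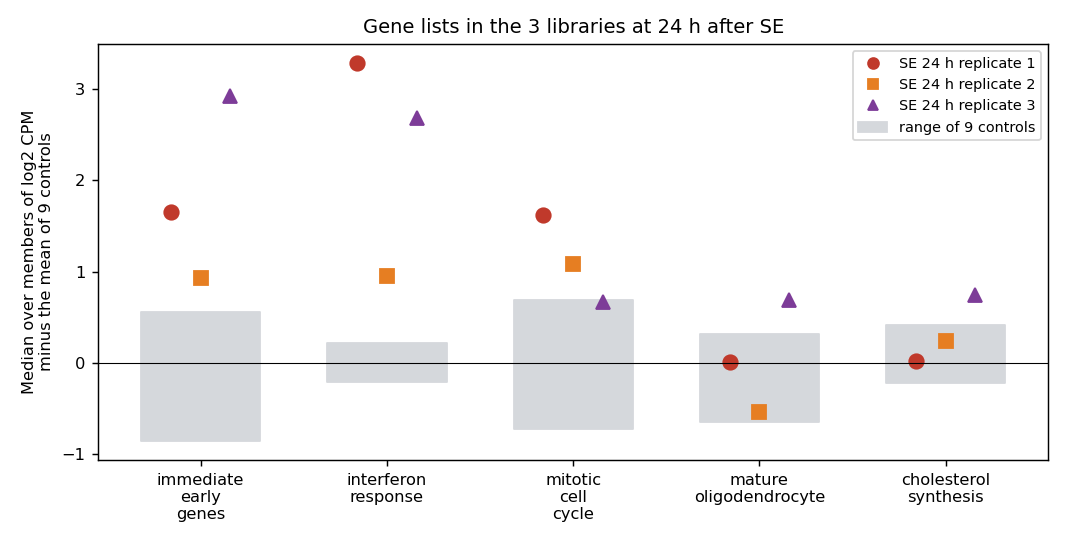
Median over the members of 5 gene lists of log2 CPM minus the mean of the 9 controls, for SE 24 h replicates 1 (red circle), 2 (orange square) and 3 (purple triangle), with the range of the 9 controls in grey. Replicate 2 is lowest for the interferon list (0.95, against 3.29 and 2.68), replicate 3 is highest for immediate early genes (2.93), and the myelin and cholesterol lists overlap the range of the controls in 2 of the 3 libraries.

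All 12 MAPK feedback genes rose (median 1.40), and 11 had separate groups. Dusp4, a phosphatase of MAP kinases, was at 36.5, 51.3 and 157 CPM against 4.77 to 16.3 CPM (median 11.2) and rose by 3.01 ± 0.34, Dusp6, which acts on ERK, rose by 1.56 ± 0.26 and the receptor kinase antagonist Spry2 by 2.30 ± 0.21. Of 18 neuropeptides and secreted neuronal factors 13 rose and 1 fell (median 2.33), the decrease being lost when any of 8 of the 12 libraries was left out. Thyrotropin-releasing hormone (Trh) was at 19.6, 51.6 and 38.3 CPM against 0 to 0.899 CPM (median 0.591) (Log2FC 6.29 ± 0.57) and activin A (Inhba) at 436, 245 and 948 CPM against 6.22 to 17.997 CPM (median 9.71) (Log2FC 5.75 ± 0.46). Replicate 2 was the highest library for Trh and the lowest for Inhba, and no control overlapped either. Bdnf, a neurotrophin, was at 133, 134 and 494 CPM against 19.4 to 40.2 CPM (median 24.7). Neuropeptide Y (Npy) rose by 2.37 ± 0.20, Vgf by 2.77 ± 0.24 and somatostatin (Sst) by 0.91 ± 0.25, while cholecystokinin (Cck) was at 186, 165 and 246 CPM against 166.9 to 214 CPM (median 201) (Log2FC 0.02 ± 0.20, adjusted p = 0.96).

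Of 16 genes of GABA-A receptors and GABA transport 9 fell and none rose (median −0.79), and 10 lay below all controls. The astrocytic GABA transporter Slc6a11 was at 32.8, 47.3 and 15.8 CPM against 148 to 224 CPM (median 194). No library overlapped the controls, and Log2FC was −2.56 ± 0.26. Among subunits, Gabra2, Gabra4, Gabra5, Gabrb2, Gabrg1 and Gabrd fell, by 0.86 to 1.58. Against Ctr 72 h alone, the controls at the daily phase of SE 24 h, 5 of the 16 fell, and against Ctr 12 h and 36 h 12 did.

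Of 15 ionotropic glutamate receptor genes 6 fell and none rose (median −0.60). The AMPA receptor subunits Gria1, Gria2, Gria3 and Gria4 fell by 0.73 to 0.85, with Gria2 at 579, 546 and 687 CPM against 735 to 1206 CPM (median 1126). Grin2c, an NMDA receptor subunit, was at 18.4, 13.02 and 9.18 CPM against 59.7 to 87.7 CPM (median 75.9) and fell furthest (Log2FC −2.48 ± 0.24, adjusted p = 8.7e-08), whereas the obligatory subunit Grin1 was at 310.0, 245 and 322 CPM against 227 to 413 CPM (median 361) (Log2FC −0.20 ± 0.11, adjusted p = 0.13). Of the metabotropic receptors Grm3 and Grm5 fell and Grm8 rose, the increase not without SE 24 h replicate 3. Among 39 potassium channel genes 11 fell and 3 rose (median −0.40). Without SE 24 h replicate 3 only 1 rose, and with the label range in the fit 7 fell. Kcnip2, an auxiliary subunit of A-type channels, was at 38.0, 53.6 and 18.2 CPM against 82.9 to 248 CPM (median 161.7) (Log2FC −2.05 ± 0.39), while its paralog Kcnip3 rose from 83.5 to 172 CPM (median 106) to 256, 242 and 278 CPM (1.14 ± 0.20). Of 24 HCN, sodium and calcium channel genes 2 fell (Scn3b and Cacna2d1) and 1 rose (Hcn4), and 5 fell once Ctr 72 h replicate 2 or SE 24 h replicate 2 was left out. Of 12 cholinergic receptor genes 5 fell, Chrm1 at 183, 157 and 125 CPM against 181 to 354 CPM (median 274) (Log2FC −0.78 ± 0.17), and this count became 1 when SE 24 h replicate 3 was left out, and 3 when either Ctr 12 h replicate 3 or SE 24 h replicate 1 was.

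Markers of cell types were examined beside these lists. The 9 CA1 pyramidal markers were expressed throughout, with a summed level of 956 to 1142 CPM against 1011 to 2181 CPM in controls, and 3 fell (Fibcd1, Dcn and Ccn3) and 1 rose (Zdhhc22; 2 rose without Ctr 12 h replicate 2), none with separate groups. Fibcd1 was at 104.7, 77.3 and 49.7 CPM against 43.2 to 545 CPM (median 283). The CA3 list had no call (2 higher without Ctr 12 h replicate 3), and its sum of 155 to 262 CPM lay within the controls' 156 to 611 CPM but for the lowest library. The dentate granule list summed to 119 to 217 CPM against 40.4 to 183 CPM in controls. Of that sum a large part was Glis3, a transcription factor, at 106, 75.4 and 164 CPM against 1.36 to 11.7 CPM (median 5.83) (Log2FC 4.34 ± 0.28), while Prox1, the defining factor of granule cells, was at 17.2, 11.1 and 18.9 CPM against 2.05 to 47.0 CPM (median 12.7). Of 12 pan-neuronal genes 2 fell (1 without SE 24 h replicate 1) and 1 rose (median −0.28), and their sum of 9591 to 11820 CPM lay below the 12980 to 19890 CPM of the controls. Camk2a, a kinase of excitatory neurons, was at 1804, 1881 and 1740.5 CPM against 3346 to 7197 CPM (median 4859) (Log2FC −1.44 ± 0.17). Snap25 at 1799, 2033 and 2608 CPM and Rbfox3 at 201, 192 and 222 CPM were not called. Interneuron genes summed to 974 to 1220 CPM against 648 to 999.7 CPM, with Sst higher and Erbb4, Dlx1 and Dlx6os1 lower. The call of Sst was lost without SE 24 h replicate 3 and with the label range in the fit, and 2 genes of the list were higher without SE 24 h replicate 1. Their part in the changes of receptor and channel genes was not tested.

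Mature oligodendrocyte genes stood at different levels in the 3 SE 24 h libraries. Mbp, the myelin basic protein, was at 1492, 1092 and 2385 CPM against 1102 to 1752 CPM (median 1648) (Log2FC 0.15 ± 0.26, adjusted p = 0.67), and replicate 3 was the highest library in 12 of 12 genes. Mag, Mobp, Cldn11 and Ermn were called higher. Without replicate 3 the list had 1 such call, and with the label range in the fit it had 0. Without Ctr 72 h replicate 2, 4 genes of the list were called higher and 2 lower. Of 9 oligodendrocyte precursor genes Gpr17, a receptor of committed precursors, fell furthest (10.4, 10.9 and 20.4 CPM against 31.9 to 108.9 CPM (median 86.2), Log2FC −2.44 ± 0.29). Enpp6 fell too, and Olig2 and Sox10 rose, but neither rose without replicate 3 or with the label range in the fit. No gene of choroid plexus, erythrocytes or sensory ganglion was called, but 5 sensory ganglion genes were higher without Ctr 72 h replicate 3 and 1 erythrocyte gene was lower without SE 24 h replicate 1.

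Of 11 clock output genes, which carry an E-box or are driven by the molecular clock, 5 fell and none rose (median −0.53). Per3 was at 18.9, 21.4 and 14.8 CPM against 32.6 to 72.6 CPM (median 61.9) (Log2FC −1.58 ± 0.17) and Dbp, a PAR bZIP transcription factor that binds D-box elements, at 8.81, 14.02 and 5.68 CPM against 26.8 to 59.2 CPM (median 44.8) (Log2FC −2.19 ± 0.28). The mean of Dbp was 9.50 CPM after SE and 46.1, 51.9 and 36.3 CPM in Ctr 12, 36 and 72 h, so it was lower than at either phase of the day. Per3, Dbp, Tef, Hlf and Nr1d2 lay below all libraries of Ctr 72 h and all of Ctr 12 h and 36 h alike. Ciart and Cry2 lay below those of 12 and 36 h but not those of 72 h, and had a Log2FC of −0.53 ± 0.24 and −0.07 ± 0.12. Nfil3, a repressor at D-box elements, rose, from 6.04 to 22.3 CPM (median 8.92) to 23.04, 23.6 and 83.5 CPM (Log2FC 2.22 ± 0.42), with replicate 3 alone far above the controls. Among 10 glucocorticoid response genes 3 rose (Fkbp5, Sgk1 and Errfi1) and 4 fell, among them Tsc22d3 (27.3, 45.8 and 26.7 CPM against 89.6 to 196 CPM (median 125), Log2FC −1.94 ± 0.36).

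Regulators of transcription and chromatin differed from each other. Rest, a repressor of neuronal genes, was at 21.03, 14.98 and 19.1 CPM against 2.39 to 7.34 CPM (median 5.30), wholly above the controls (Log2FC 1.87 ± 0.16, adjusted p = 1.5e-08). Of the Polycomb genes Ezh2 and Eed rose (Log2FC 1.28 ± 0.19 and 0.72 ± 0.12), Ezh1 fell (Log2FC −0.78 ± 0.11) and Suz12 was at 53.6, 49.8 and 49.5 CPM against 43.5 to 52.97 CPM (median 48.8) (Log2FC 0.07 ± 0.08, adjusted p = 0.51). Nfe2l2, the regulator of antioxidant genes, rose by 1.03 ± 0.12. Mtf1, the metal-responsive factor, was at 46.1, 47.8 and 49.3 CPM, above the controls' 28.5 to 40.6 CPM (median 38.0), and passed the test (adjusted p = 0.00058) but at a Log2FC of 0.44 ± 0.09 not the size required. Ppargc1a, a coactivator of mitochondrial genes, likewise passed the test at a Log2FC of −0.43 ± 0.12 without reaching that size. Hap1, the huntingtin-associated protein, fell from 251 to 358 CPM (median 296) to 120.95, 128 and 78.4 CPM (Log2FC −1.44 ± 0.26), as did Cmtm5 (Log2FC −2.37 ± 0.25), while Tmem100 at 14.1, 13.7 and 10.2 CPM was not called against controls (Log2FC −0.32 ± 0.15, adjusted p = 0.081).

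To place 24 h between its neighbours in time, SE 24 h was compared with SE 12 h and SE 36 h in the same fit, with a Log2FC of 1 or more in size required. By the hours in the labels, both neighbours lie at the opposite phase of the daily cycle from 24 h. In both steps time after SE and time of day therefore cannot be told apart. Against SE 12 h, 271 genes (1.49% of those tested) were higher and 313 (1.72%) lower at 24 h. From 24 to 36 h, 63 (0.347%) were higher and 32 (0.176%) lower. Of the 20 reactive astrocyte genes 8, and of the 19 matrix genes 8, were higher at 24 h than at 12 h. Timp1 was 2.47 higher and Tnc 2.65 higher on the log2 scale, Tnc passing from a mean of 48.8 to 305 CPM. Of the 15 interferon genes 4 were higher at 24 h than at 12 h: the mean of Rsad2 was 2.20 CPM at 12 h and 13.3 CPM at 24 h (Log2FC 2.56 ± 0.67, adjusted p = 0.023). Of 11 homeostatic microglia genes 5, Selplg among them, were higher at 24 h than at 12 h while Siglech was lower. Some stress genes were past their highest mean. Hmox1, a haem oxygenase, fell from 125 to 32.4 CPM (Log2FC −1.94 ± 0.30) and was still above the controls' mean of 5.44 CPM, and Hspa1b, an inducible chaperone nearly identical to Hspa1a, fell from 162.2 to 27.5 CPM. Mki67, a marker of proliferating cells, had the reverse order, with a mean of 4.48 CPM at 24 h and 20.9 CPM at 36 h (Log2FC 2.32 ± 0.43, adjusted p = 0.018).

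Some genes passed the test in both steps with opposite signs. Both steps share the 3 SE 24 h libraries, so that the spread of these libraries alone favours such genes, and their number is not read as a result. The steps also pass to the opposite phase of the daily cycle and back. A daily rhythm and time after SE cannot be told apart for these genes. Higher at 24 h than at both neighbouring times were Il11, Ptx3, Adamts4 and Hlf, and, named here after their values were seen, Thbd, Gem, Wnt7a and Atp13a4. Il11 passed from 10.8 to 69.8 and back to 9.06 CPM at 12, 24 and 36 h, against 0.360 CPM in controls (Log2FC 2.75 ± 0.57 up and −3.05 ± 0.58 down). Thrombomodulin (Thbd), an anticoagulant receptor of endothelium, went from 54.2 to 161.6 and 56.9 CPM, and Wnt7a, a secreted Wnt ligand, from 6.92 to 30.5 and 10.9 CPM, with 18.8 CPM in controls. All of these but Hlf lay above the controls at 24 h, whereas Hlf at 38.4, 89.1 and 79.0 CPM lay below them, at 123 to 275 CPM (median 180.1), even at its highest of the 3 times. Lower than at both were Cldn10, Adhfe1 and Tmem100 and, named after their values were seen, Aass, an enzyme of lysine breakdown, and Folh1, which cleaves N-acetylaspartylglutamate. Adhfe1 went from 10.8 to 2.40 and 5.79 CPM, and Folh1 from 4.44 to 1.32 and 9.70 CPM. The count of 95 genes between 24 and 36 h rested on single libraries: leaving out SE 24 h replicate 3 or 2 made it 15 or 159, and leaving out SE 36 h replicate 1 or 3 made it 19 or 46. That between 12 and 24 h was 387 with SE 24 h replicate 1 left out.

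**Figure D5:**
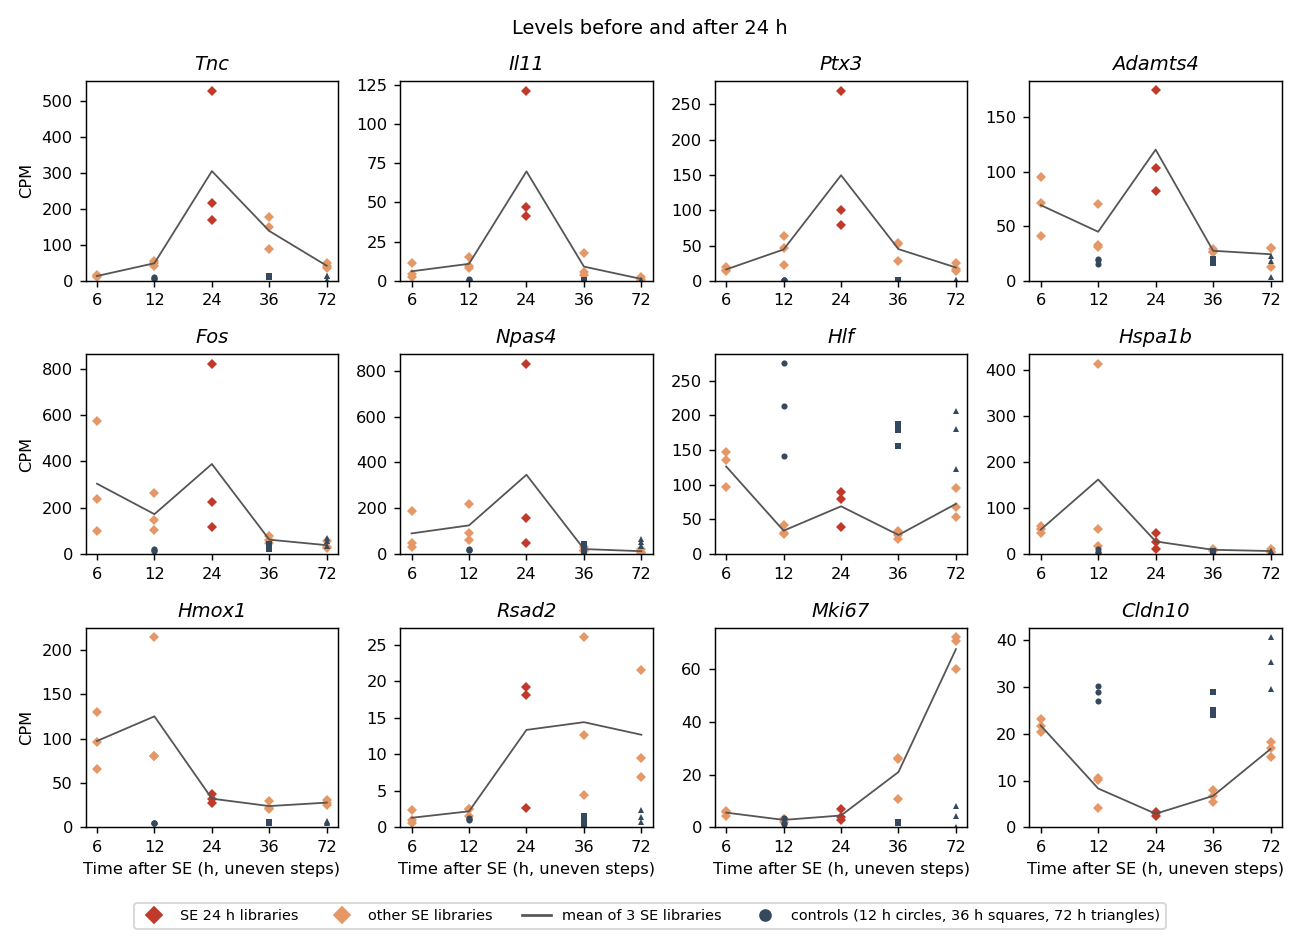
CPM of 12 genes at the 5 times after SE, 6 to 72 h (SE 24 h libraries as red diamonds, other SE libraries in orange, line through the means of 3) and in the 9 controls (dark symbols), with evenly drawn but unequal time steps. Tnc, Il11, Ptx3 and Adamts4 have their highest mean at 24 h, Cldn10 its lowest, Hmox1 falls between 12 and 24 h and Mki67 rises after it.

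Promoters are shown for 3 genes, of which Il11 and Cxcl10 rose and Per3 fell, as a description of letters in the sequence. The 250 bases before the start of 16271 promoters of 12756 tested genes were searched on both strands (RefSeq, build GRCm38.p6, which differs from the build of the counts). The AP-1 motif TGANTCA was present in 4.81% of all, in 8.80% of the 2478 promoters of genes that rose and in 4.41% of the 1496 of genes that fell. The NF-kB motif GGGANTTCC was present in 1.75%, 1.94% and 1.67%, and the D-box TTATGNAA in 2.02%, 1.74% and 2.47%. For NF-kB only this form was searched, with 1 base between GGGA and TTCC, so that its shares leave out other forms. The STAT motif TTCNNNGAA was in 5.96% of all, 6.38% of those that rose and 5.88% of those that fell. The metal response pattern TGCNCNC was in 52.2%, 50% and 50.5%. For the serum response only a loose pattern was searched, CC and GG with any 6 bases between, found in 78.7%, 78.5% and 77.5%. A pattern met in most promoters cannot set these groups apart, and its shares are not read as shares of binding sites. A match is no evidence that a factor binds. Below, only the motif named for each gene is marked. Other matches stay in lower case, among them TGAGTCA, a match to AP-1, in the promoter of Cxcl10. That promoter also holds GGGAAATTCC, with 2 bases between GGGA and TTCC, which the NF-kB form searched does not match. In the sequences below, each written 5′ to 3′ towards the start of the gene, capitals mark the motif: AP-1 in 1 of the 2 promoters of Il11 (chr7:4778142-4778391, minus strand, 98 bases before the start), NF-kB in that of Cxcl10 (chr5:92348890-92349139, minus strand, 103 bases before) and 2 D-boxes in that of Per3 (chr4:151044666-151044915, minus strand, 205 and 158 bases before).
Il11: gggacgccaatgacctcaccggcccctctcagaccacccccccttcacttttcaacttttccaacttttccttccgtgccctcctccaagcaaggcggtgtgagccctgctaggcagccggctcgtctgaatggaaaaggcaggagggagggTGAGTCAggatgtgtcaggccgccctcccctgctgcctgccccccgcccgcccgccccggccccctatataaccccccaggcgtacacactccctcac
Cxcl10: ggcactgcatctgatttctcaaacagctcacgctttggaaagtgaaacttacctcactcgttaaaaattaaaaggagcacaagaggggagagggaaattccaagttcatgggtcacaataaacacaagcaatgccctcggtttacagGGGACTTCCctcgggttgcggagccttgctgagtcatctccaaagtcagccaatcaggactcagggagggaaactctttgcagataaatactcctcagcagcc
Per3: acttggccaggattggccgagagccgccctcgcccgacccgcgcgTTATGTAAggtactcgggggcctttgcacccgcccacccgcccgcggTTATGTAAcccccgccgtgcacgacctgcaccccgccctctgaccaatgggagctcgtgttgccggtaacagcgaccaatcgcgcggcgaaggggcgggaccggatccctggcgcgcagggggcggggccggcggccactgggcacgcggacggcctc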

How the data were processed

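RNA of CA1 was measured in 24 libraries, and all 24 entered the fit. Per the paper's methods and the submitters' processing notes, the authors trimmed reads with Trim Galore 0.6.6, aligned them with STAR 2.7.8a to GRCm39, sorted alignments with SAMtools 1.10 and counted them per gene of GENCODE M26 with HTSeq 0.13.5 without regard to strand, and deposited whole-number counts without normalization. Of 18647 genes, 18552 were matched to symbols and positions of a later GENCODE release on GRCm39 and 95 were not.

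Groups were taken from the labels. In R 4.3.3, counts were scaled with TMM, filtered with filterByExpr and fitted in edgeR 4.0.16 by group, with 1 RUVr factor for unwanted variation, and SE 24 h was compared with the unweighted mean of Ctr 12, 36 and 72 h. The RUVr factor was −0.392, 0.802 and −0.352 in Ctr 72 h replicates 1, 2 and 3. In the other libraries it was at most 0.136 in size. It thus held mostly the spread within Ctr 72 h. Log2 CPM used a prior count of 2. Genes named are the 12 largest increases and decreases under the rule in the text, members of the lists, and genes that the paper names; others are said to be chosen after values were seen. The contrast, the lists and the rule were chosen with earlier results of these data known. On simulated counts for 17088 genes, 59 of 95 genes changed by a Log2FC of 1 (62.1%) and 83 of 94 changed by 2 (88.3%) were recovered, with 6 of 16899 called in error. In the simulation all libraries shared the pooled control level of each gene, but for the genes changed in SE 24 h. It held no library that stood apart, no difference between control groups and no change at other times after SE. Its rates of recovery and error therefore need not hold for these data. The highest correlation between 2 libraries was 0.9913, and none was taken as a repeat. Shared replicate numbers did not pair libraries (correlations of deviations −0.044 to 0.124). Counting intervals and floors cover counting error only.

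Alternatives were another or no RUVr factor, DESeq2 1.42.0, limma-voom (limma 3.58.1), other scalings, filters and thresholds, subsets of controls, terms for label range or replicate number, and leaving out each library in turn. Added after the data were seen were 2 fits without an RUVr factor and without 1 or all 3 Ctr 72 h libraries, and counts thinned to the smallest library. Some single genes are not reported here.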

Additional observations from a re-analysis of the deposited data

Results flagged for a closer look

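In 7 of the 32 genes named by the rule or by the paper, 1 of the 9 controls lay far from the rest, its gap to the nearest of them being a large share of the range of log2 CPM over the controls. This share was 0.687 for Ccl2, 0.673 for Fam163a, 0.563 for Agmo, 0.693 for Nfe2l2 and 0.63 for Tmem100, where the library was Ctr 72 h replicate 2. It was 0.685 for Lif and 0.533 for Flnc, where the library was Ctr 72 h replicate 3, the shallowest. Chance alone gives such a gap in about 5% of groups. Over all 18153 genes the share was 26%, and in 3477 of those 4715 genes the library was Ctr 72 h replicate 2. The same library stood apart on the first principal component (0.633), the second (0.878) and the RUVr factor (0.632).

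The level at 24 h differed from its neighbours in time by the test of each step, with 584 genes between 12 and 24 h and 95 between 24 and 36 h.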

How the results depend on the processing

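The 4393 DEGs against all controls were 2499 with at least 10 counts required in every library, 2924 (69.5% higher) at an absolute Log2FC of at least 1 and 7510 with no limit on size. They numbered 3161 with the label range as a factor, 4002 without an RUVr factor, 4503 by DESeq2, 4150 by limma-voom, 3956 against Ctr 72 h alone and 3222 after thinning, and 3492 to 4637 when 1 library was left out. Without Ctr 72 h replicate 2 there were 4418, of which 55.4% were higher, against 61.9% with it. The 584 between 12 and 24 h were 387 without an RUVr factor, 257 with the 10-count filter, 106 (68.9% higher, against 46.4%) when only the compared libraries were fitted, 1003 at a Log2FC of 0.66, and 387 to 670 when 1 library was left out. The 95 between 24 and 36 h were 19 without and 189 with 2 RUVr factors, 291 by DESeq2, 59 with the 10-count filter, 37 (35.1% higher, against 66.3%) when only the compared libraries were fitted, 35 with the label range, and 15 to 159 when 1 library was left out. With a replicate block the 3 counts were 4352, 586 and 93. With the 500 most variable genes the first component held 56.3% of the variance. Direction turned for Tlr9 against Ctr 72 h alone (0.0029), Dsp against Ctr 12 h alone (−5.41; −1.92 to 1.51 when 1 library was left out) and Scn10a with 1 library left out (−3.47 to 6.15, without SE 24 h replicate 3 and without Ctr 72 h replicate 3). Dsp and Scn10a, neither of them called, changed sign under other alternatives as well. The cause of these shifts was not tested. The 24 genes that met the rule kept direction and call in every alternative that tested them, and 5 of them were tested with the 10-count filter. They had been picked for size, call and separate groups in these same counts. That outcome was therefore largely fixed by the rule and is not read as a check of them. With no control at 24 h, 3 libraries after SE and 1 control of 2663936 counts, the power for small changes was limited.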

Other observations

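Stress and repair genes changed in part. Of 15 heat shock chaperones 6 rose and none fell (median Log2FC 0.45), among them the small heat shock protein Hspb1, at 211, 175 and 262 CPM against 3.09 to 42.6 CPM (median 3.75), while the constitutive Hspa8 was at 924, 1039.8 and 1218 CPM against 635 to 1207 CPM (median 940.4) (Log2FC 0.24 ± 0.12). Of 16 genes of ER stress and the integrated stress response 7 rose and 1 fell (median 0.59). Atf4, a transcription factor of that response, rose by 1.44 ± 0.13 and the chaperone Hspa5 by 1.09 ± 0.21, while Ddit3 was at 18.9, 22.6 and 21.4 CPM against 12.4 to 18.4 CPM (median 15.5) (Log2FC 0.48 ± 0.19). Of 12 NRF2 targets and ferritin genes 6 rose and 2 fell (median 0.78), Srxn1 rising by 2.01 ± 0.15 and Gsta4 falling (Log2FC −1.998 ± 0.22). Of 9 metallothionein and zinc genes Mt1, Mt2 and the transporter Slc39a14 rose and the vesicular zinc transporter Slc30a3 fell, with Mt2 at 82.4, 73.1 and 43.0 CPM against 2.16 to 7.46 CPM (median 4.87). Of 15 p53 targets and BCL2 family genes 7 rose and 2 fell (median 0.64), of which 1 fell without SE 24 h replicate 3. Cdkn1a, an inhibitor of cyclin-dependent kinases, was at 147, 121.02 and 190.0 CPM against 3.09 to 17.997 CPM (median 12.7) (Log2FC 3.92 ± 0.31), while the pro-apoptotic Bbc3 was at 6.69, 4.83 and 6.17 CPM against 4.09 to 9.86 CPM (median 8.999) (Log2FC −0.47 ± 0.25).

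Of 19 mitotic genes 13 rose and none fell (median 1.16), at low levels: Top2a was at 9.88, 5.36 and 4.62 CPM against 0.773 to 3.75 CPM (median 2.30), and replicate 1 was the highest library in 15 of the 19. Without replicate 1, 9 rose. The licensing factor Mcm6 was at 30.5, 24.5 and 19.8 CPM against 7.05 to 11.2 CPM (median 9.37) (Log2FC 1.45 ± 0.14). Of 16 cholesterol synthesis genes 3 rose (median 0.37), and replicate 3 was the highest library in all 16. In the Notch pathway Notch1, Jag1 and Id2 rose and Hes5, Id4 and Dll1 fell. Hes5, a target of Notch in progenitors and astrocytes, was at 0.106, 0.131 and 0.420 CPM against 0.341 to 8.09 CPM (median 5.25) (Log2FC −4.04 ± 0.69), while Hes1 was at 23.999, 16.7 and 12.8 CPM against 9.28 to 18.4 CPM (median 12.8) (Log2FC 0.43 ± 0.20).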
